A study of Homo sapiens and Mus musculus with 13 samples.

Results

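RNA-Seq of 7 MDA-MB-231 libraries was used to ask which transcripts stood apart from Control in every knockdown line, whichever of the targeted genes or guides was used. MDA-MB-231 is a triple-negative human breast cancer cell line of mesenchymal type. All lines were made with lentivirus that carries Cas9 and an sgRNA and were selected with puromycin, and whether they are clones or mixed cells is not given in the sources used here. The Control line carried an sgRNA against GFP, TRIM11-KD1 and TRIM11-KD2 carried TRIM11-sgRNA1 and TRIM11-sgRNA2, KDM5C-KD1 and KDM5C-KD2 carried KDM5C-sgRNA1 and KDM5C-sgRNA2, DKD1 carried TRIM11-sgRNA1 with KDM5C-sgRNA2, and DKD2 carried TRIM11-sgRNA2 with KDM5C-sgRNA2. Each line is 1 library, so KDM5C-sgRNA2 is present in 3 of the 6 knockdown lines and no guide is present in all 6. The series also holds mammary tumors of MMTV-PyVT mice, a transgene that expresses the polyomavirus middle T antigen from a mammary tumor virus promoter, in hybrids of C57BL/6N and FVB/N at 3 months of age, from 3 Trim11 wild-type and 3 Trim11+/- animals that lack exons 2 to 6 on 1 allele.

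TRIM11 is a ubiquitin E3 ligase of the tripartite motif family, and KDM5C is an X-linked demethylase that removes methyl groups from lysine 4 of histone H3. Methylation of that lysine marks promoters and enhancers in use, and enzymes of the KDM5 family are known as regulators of transcription in breast cancer. The study asks how the ligase and the demethylase act on each other, and the double knockdown (DKD) targets both. Taking all knockdown lines together asks a different question, namely which genes stand apart from Control whichever of the enzymes was targeted.

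Expression was given in FPKM, the fragments of a gene scaled by transcript length and library size. Of 24523 gene symbols, 11775 averaged 1 FPKM or more across the 7 libraries, and 182 of these were at least 1.5-fold from Control in the same direction in all 6 lines. There were 98 higher genes, 0.832% of the genes tested, and 84 lower genes, 0.713%. Because the same values chose these genes, they are described without a test. All 6 comparisons share the 1 Control library, so a change common to the knockdown lines and a departure of Control itself cannot be told apart.

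In every library, the markers expected to be high in MDA-MB-231 summed to far more FPKM than those expected to be low. All 9 markers expected to be high, among them VIM, CD44 and EGFR, averaged 1 FPKM or more, with a summed FPKM of 2629 in Control and 2484 to 3212 in the knockdown lines. ESR1, PGR, FOXA1 and KRT5 stayed under 1 in every library, but 4 of the 9 markers expected to be low averaged 1 FPKM or more. The 9 markers expected to be low summed to 30.8 in Control and 32.1 to 45.7 in the lines. 4 of the 7 leukocyte markers, among them PTPRC, CD3E and LYZ, and 6 of the 8 fibroblast and endothelial markers, were also under 1 everywhere. The leukocyte list, of which 2 markers averaged 1 FPKM or more, summed to 114 in Control and 69.0 to 110 in the lines. Its part in the results was not tested.

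The targeted transcripts were examined next. KDM5C (ENSG00000126012.13_13, hg19 chrX:53205465-53254604) stood at 30.3 FPKM in Control. KDM5C-KD1 and KDM5C-KD2 had 20.6 and 21.4, DKD1 and DKD2 had 18.8 and 22.7, and the TRIM11-KD lines kept 29.8 and 28.4. It was lowest in the 4 lines with a KDM5C guide, with no overlap with the other 3 libraries. TRIM11 (ENSG00000154370.16_9, chr1:228581374-228594536) was at 12.6 in Control. The lines with TRIM11-sgRNA1 had 13.4 (TRIM11-KD1) and 16.1 (DKD1), those with TRIM11-sgRNA2 had 10.6 (TRIM11-KD2) and 9.38 (DKD2), and the KDM5C-KD lines had 13.6 and 14.2. TRIM11 mRNA was thus below Control in both lines with TRIM11-sgRNA2 and above it in both lines with TRIM11-sgRNA1. The mRNA level does not report whether a Cas9 cut has disrupted the protein. Without TRIM11-KD1 and DKD1, 223 genes were higher and 234 lower in all of the other 4 lines, and these include the 98 and the 84.

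The lines lay at different distances from Control. The share of genes at least 1.5-fold above and below Control was smallest in TRIM11-KD1, with 4.23% above and 3.3% below. KDM5C-KD1 had 6.85% above and 5.01% below, TRIM11-KD2 had 7.21% and 8.31%, and DKD1 had 8.12% and 7.54%. The largest shares were those of DKD2, with 10% and 10.8%, and of KDM5C-KD2, with 10.1% and 11.7%. By any amount, 1582 genes (13.4%) were above Control in all 6 lines and 1914 (16.3%) below. At the 1.5-fold level, 169 genes were higher in exactly 5 of the lines and 140 lower, so the groups in all 6 are the end of a gradual series. TRIM11-KD1 was nearest to Control, with a median size of the log2 ratio of 0.17 over all genes, and KDM5C-KD2 was farthest with 0.29.

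**Figure D1:**
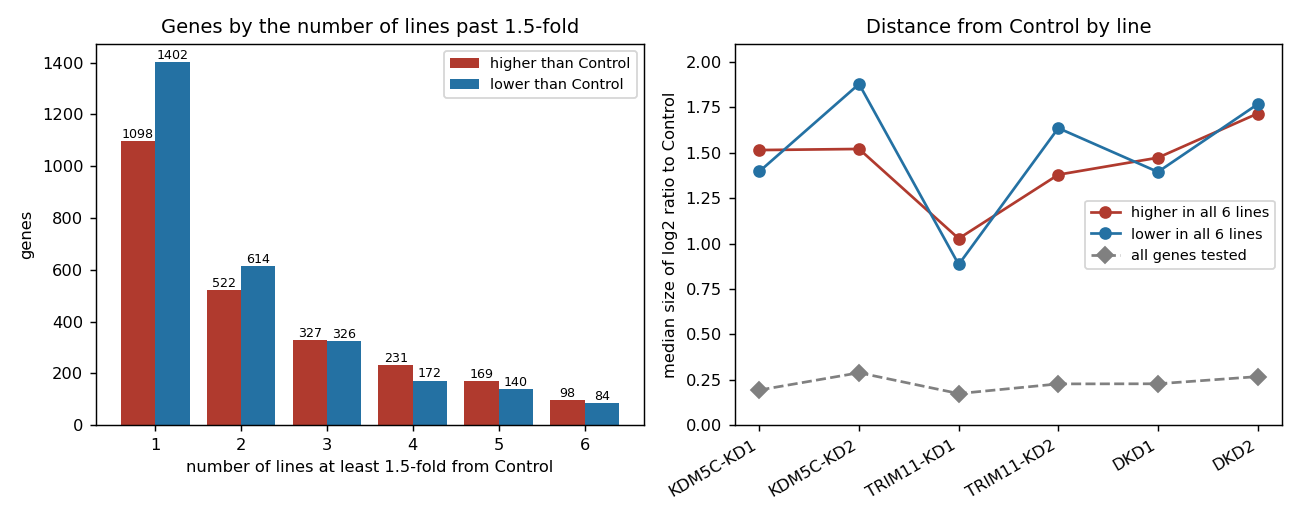
Left, number of genes at least 1.5-fold higher (red) or lower (blue) than Control in 1 to 6 of the knockdown lines. Right, median size of the log2 ratio to Control in each line for the 98 higher genes, the 84 lower genes and all genes tested (grey); the members lie nearest to Control in TRIM11-KD1, at 1.03 and 0.88.

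TRIM11-KD1 was also the line that limited membership. It was the least changed line for 43 of the 98 higher and 59 of the 84 lower genes, and KDM5C-KD2 and DKD2 were the most changed lines for 29 and 35 of the higher and 31 and 30 of the lower genes. With TRIM11-KD1 left out, 172 genes were higher and 154 lower in all of the other 5 lines. The median fold from Control of the higher genes was 2.04 in TRIM11-KD1 and 3.29 in DKD2, and that of the lower genes was 1.85 in TRIM11-KD1 and 3.68 in KDM5C-KD2. Among genes averaging 5 FPKM or more, LRRC61, RASD2 and PTGFRN were just inside the threshold, with 1.504-, 1.52- and 1.53-fold in their least changed line, and LAMB1, ZBTB38 and EVI2B were just outside with 1.49-fold each. On the lower side IGFBP4, WDR83 and the merged entry CUZD1,FAM24B,FAM24B-CUZD1 were just inside at 1.501-, 1.52- and 1.52-fold, and PAGE5, WFS1 and FARSA were just outside at 1.48-, 1.47- and 1.47-fold.

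The members were mostly protein-coding genes of low or moderate level. Of the genes with a position in hg19, 85 of 94 higher and 76 of 79 lower genes were protein-coding, against 96.9% of all genes tested. The median over genes of the mean FPKM was 3.31 for the higher and 3.50 for the lower genes, against 12.5 for all genes tested. An average of 5 FPKM or more was reached by 27 higher and 30 lower genes, and 24 higher and 23 lower genes were at least 2-fold from Control in all 6 lines. Control was listed at 0 for SCN4B, C2orf82 and PAGE1, and no fold is given for these. From the steps in low FPKM values, the libraries were estimated to hold 13790000 to 21030000 fragments. The fewest were in KDM5C-KD2, the line farthest from Control, and the most in TRIM11-KD1, the nearest. DKD2, which also lay far from Control, had 18950000, close to the 18870000 of Control. The part of depth in the distances of the lines was not tested. Of the 93 higher genes with a known transcript length, 37 then had fewer than 30 fragments in Control, against 0 of 79 lower genes. On their high side, 28 of the 93 had fewer than 30 fragments in at least 1 knockdown line. Control is the high side for the lower genes, so their few fragments fall in the knockdown lines. There, 6 lower genes were listed at 0 in at least 1 line, among them RHOJ and CHRDL1 in KDM5C-KD2, and TFF3 had an estimated 1.55 fragments in DKD2.

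Among the lower genes averaging 5 FPKM or more, small RNAs aside, SPDEF and the cystatin genes CST4, CST2 and CST1 had the largest folds in their least changed line. SPDEF is an ETS transcription factor of luminal and goblet secretory cells, and CST1, CST2, CST4 and CST3 encode type 2 cystatins, which inhibit cysteine proteases such as the cathepsins. CST1, CST2 and CST4 are salivary cystatins with closely similar sequences, and CST3 is cystatin C, which most cells secrete.

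Over the whole coding sequence, read from hg19 transcripts, CST1 was 92.7% identical to CST4 and 91.3% to CST2, and CST2 was 92.4% identical to CST4, so the split of fragments among these 3 is uncertain. CST3 was 69.6% identical to CST1. All 4 lie on the minus strand of chromosome 20 (hg19), CST3 at chr20:23607343-23619110, CST4 at chr20:23666277-23669675, CST1 at chr20:23728199-23731905 and CST2 at chr20:23804406-23807366, with gaps of 47.2, 58.5 and 72.5 kb between neighbours.

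CST1 reached 1380 FPKM in Control, 575 in TRIM11-KD1, 77.7 in DKD1, 58.5 in KDM5C-KD1, 37.01 in TRIM11-KD2, 1.49 in DKD2 and 0.907 in KDM5C-KD2. CST4 was at 416 in Control, 142 in TRIM11-KD1, 26.4 in KDM5C-KD1, 22.0 in DKD1, 10.2 in TRIM11-KD2, 3.60 in DKD2 and 0.406 in KDM5C-KD2. The transcripts were among the most abundant of the Control library and close to the limit of detection in KDM5C-KD2, where the estimate was 6.87 fragments of CST1 and 3.07 of CST4. CST2 was at 49.9 in Control, 18.0 in TRIM11-KD1 and between 0.587 and 5.72 in the other lines. CST3 was nearest to Control, with 622 in Control, 163 in KDM5C-KD2, 176 in DKD2, 194 in TRIM11-KD2, 239 in DKD1, 285 in TRIM11-KD1 and 314 in KDM5C-KD1. The mean log2 ratio over the 6 lines was -5.94 ± 3.59 (SD) for CST1, -5.33 ± 2.88 for CST4, -4.03 ± 1.67 for CST2 and -1.49 ± 0.38 for CST3, where the SD is over 6 lines that differ in guide and target. Of the 7 type 2 cystatins tested, these 4 were below Control in all 6 lines and 1 was above in all 6, and the list had a median log2 ratio of -1.53 against -0.01 for all genes tested.

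SPDEF (ENSG00000124664.11_11, hg19 chr6:34505579-34524110) reached 30.3 FPKM in Control, 7.20 in TRIM11-KD1, 3.80 in DKD1, 3.17 in KDM5C-KD1, 1.07 in KDM5C-KD2, 0.675 in TRIM11-KD2 and 0.339 in DKD2. Its least changed line was 4.21-fold below Control, the largest least fold among the lower genes averaging 5 FPKM or more for which every library was above 0. The mean log2 ratio was -4.19 ± 1.68 (SD, 6 lines). SPDEF was the only member of the 8 luminal and epithelial transcription factors tested that passed 1.5-fold in all 6 lines.

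Other genes of secretory epithelia were also lower members. The grouping was made after the values were seen and is a description. TFF1, TFF2 and TFF3, trefoil peptides secreted with mucins, lie within 54.9 kb of chromosome 21 and were all members. TFF1 was at 13.3 in Control, 5.86 in TRIM11-KD1 and 1.49 to 3.87 in the other lines, and TFF2 was at 14.7 in Control, 4.81 in TRIM11-KD1 and 0.464 to 2.15 in the others. TFF3 was at 9.96 in Control, 1.33 in TRIM11-KD1 and 0.123 to 0.786 in the others, so its least changed line was 7.51-fold below Control. AGR2, an endoplasmic reticulum disulfide isomerase of mucin-secreting cells, was at 6.52 in Control, 2.65 in TRIM11-KD1 and listed at 0 in DKD2. B3GNT7, an acetylglucosaminyltransferase, was at 11.1 in Control and at 5.97 in TRIM11-KD1, 0.914 in TRIM11-KD2 and 0.185 in DKD2. The tetraspanins TSPAN1 and TSPAN8 were at 6.21 and 5.2003 in Control and at 2.79 and 2.69 in TRIM11-KD1, and every other line was under 1.5. In each of these 7 genes TRIM11-KD1 had the highest value after Control, as it did for 59 of all 84 lower genes. The order of the other lines differed among the genes.

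**Figure D2:**
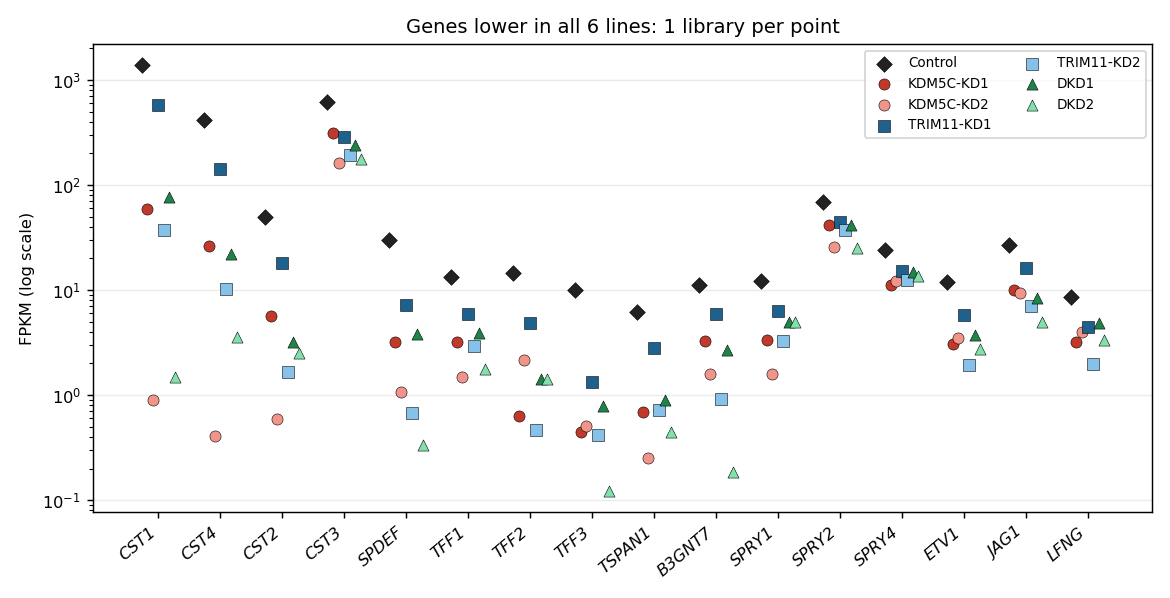
FPKM on a log scale of 16 genes lower in all 6 lines, with 1 point per library. Control (black diamond) is above every knockdown line for each gene, TRIM11-KD1 (dark blue) is usually next, and the lines spread from 0.907 to 575 for CST1 but by less than 2-fold for CST3 and SPRY4.

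SPRY1, SPRY2 and SPRY4 were lower members, and they are described with other genes of growth factor signalling, a grouping made after the values were seen. They encode Sprouty proteins, which are induced by ERK signalling and restrain it. SPRY1 reached 12.1 FPKM in Control, 6.34 in TRIM11-KD1, 4.98 in DKD2, 4.93 in DKD1, 3.31 in KDM5C-KD1, 3.26 in TRIM11-KD2 and 1.596 in KDM5C-KD2. SPRY2 was at 68.7 in Control and 24.96 to 44.3 in the lines, and SPRY4 was at 24.1 in Control and 11.1 to 15.1 in the lines. ETV1, an ETS factor that responds to FGF signalling, was at 11.97 in Control and 1.95 to 5.80 in the lines. FGF5, a secreted FGF ligand, was at 11.2 in Control and 3.15 to 7.08 in the lines. AREG, an EGF receptor ligand, was above Control in all lines, with 6.08 in Control, 10.1 in DKD2, 13.1 in KDM5C-KD1, 16.5 in TRIM11-KD2, 16.7 in KDM5C-KD2, 19.1 in DKD1 and 24.1 in TRIM11-KD1. AREG was the only member for which both lines with TRIM11-sgRNA1 were farther from Control than all other lines. FGF5 and AREG were the only members among the 20 growth factors and EGF ligands tested. Their share of that list was 10%, against 0.832% higher and 0.713% lower of all genes tested. Among 26 immediate early genes tested there were 0 members, and a list of this size would hold few or none at the share of all genes. Of these, 8 were above Control in all 6 lines by any amount, against 13.4% of all genes tested, and 1 was below, with a median log2 ratio of 0.145.

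In the Notch pathway, 3 of 20 genes tested (15%) met the rule, against 0.832% higher and 0.713% lower of all genes tested. JAG1, a Notch ligand, was at 26.6 in Control, 16.3 in TRIM11-KD1, 9.97 in KDM5C-KD1, 9.40 in KDM5C-KD2, 8.43 in DKD1, 6.98 in TRIM11-KD2 and 4.95 in DKD2. LFNG, a Fringe glycosyltransferase that modifies Notch receptors, was at 8.58 in Control and 1.97 to 4.90 in the lines. NRARP, an ankyrin repeat protein that Notch induces and that limits its signal, was at 1.34 in Control and 2.22 to 3.92 in the lines. Thus a ligand and a modifier were lower and a target was higher in all 6 lines, while the median log2 ratio of the list was -0.01, as for all genes.

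Further lower genes had various roles. HMGA1, a DNA-binding chromatin protein and the most abundant member, was at 1506 in Control and 535 to 786 in the lines, with a mean log2 ratio of -1.18 ± 0.22 (SD, 6 lines). HMGA1 lies on chromosome 6, 292 kb from SPDEF. IGFBP4, which binds insulin-like growth factors, was at 1016 in Control, 677 in TRIM11-KD1 and 352 to 541 in the other lines. The extracellular protease ADAMTS1 was at 14.5 in Control, 9.02 in TRIM11-KD1 and 0.369 to 2.39 in the others, and CHAC1, a glutathione-degrading enzyme of the ATF4 response, was at 8.78 in Control and 1.67 to 5.46 in the lines. MOCS1, an enzyme of molybdenum cofactor synthesis, was at 13.1 in Control and 2.43 to 6.03 in the lines. Other lower genes named by rank were LPHN2, MUSK, KHDRBS3, VIPR1, SLC9A3R2 and CCDC69, with mean log2 ratios between -1.67 and -1.15. NR2F1 and CERS6 were lower together with their overlapping antisense genes NR2F1-AS1 and CERS6-AS1, which cannot be told apart from them because the libraries did not keep strand.

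Entries for small RNAs need caution. SNORA61 and SNORA8 reached 72.0 and 55.4 FPKM in Control and were listed at 0 in all 6 lines, and SCARNA17,SNHG22 was at 6.72 in Control and 1.41 to 4.35 in the lines. These 3 were the members among 119 small RNA entries tested (2.52%), against 0.713% lower of all genes tested. Such RNAs are short and lack a poly(A) tail, and an exact 0 in FPKM can be a failed estimate.

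**Figure D3:**
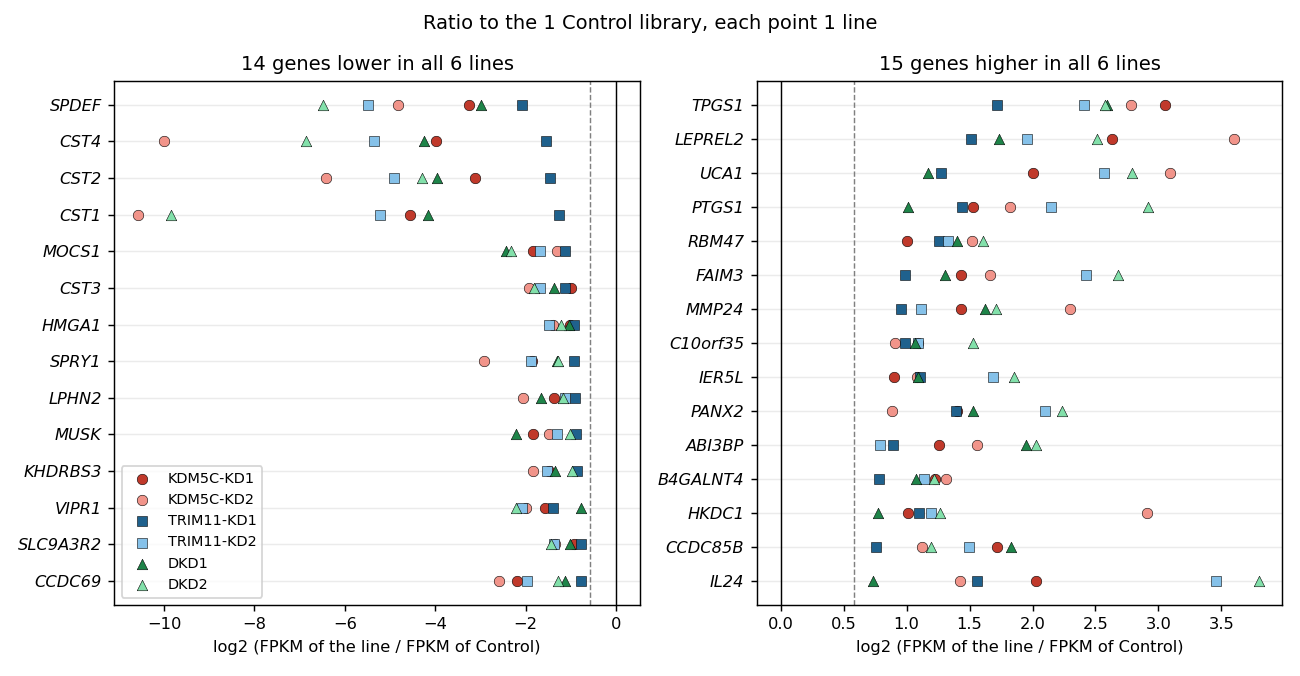
Log2 ratio of each knockdown line to the 1 Control library for 14 lower and 15 higher genes among those that average 5 FPKM or more and have the largest ratio in their least changed line; the dashed line is 1.5-fold. TRIM11-KD1 (dark blue squares) is the point nearest 0 for 12 of the 14 lower genes, and the spread among lines is widest for CST1.

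Among the higher genes averaging 5 FPKM or more, TPGS1, a subunit of the tubulin polyglutamylase complex, had the largest fold in its least changed line. TPGS1 (ENSG00000141933.9_6, hg19 chr19:507497-519654) was at 1.16 in Control, 3.82 in TRIM11-KD1, 6.18 in TRIM11-KD2, 6.95 in DKD2, 7.02 in DKD1, 8.02 in KDM5C-KD2 and 9.62 in KDM5C-KD1. Its least changed line was 3.29-fold above Control, and the Control value rests on an estimated 20.1 fragments. LEPREL2, a collagen prolyl 3-hydroxylase now named P3H3, was at 1.03 in Control and 2.94 in TRIM11-KD1, 3.44 in DKD1, 4.01 in TRIM11-KD2, 5.88 in DKD2, 6.42 in KDM5C-KD1 and 12.5 in KDM5C-KD2. UCA1, a long noncoding RNA of many carcinomas, was at 19.1 in Control, 43.0 in DKD1, 46.3 in TRIM11-KD1, 76.6 in KDM5C-KD1, 114 in TRIM11-KD2, 132 in DKD2 and 163 in KDM5C-KD2. The rule that chose these genes requires every line to be above Control, so the lack of overlap is no separate result. The lines of a knockdown type differed from each other by up to 3.08-fold for UCA1 in DKD.

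Genes of cytokine and immune signalling were present among the higher members. IL24, a cytokine of the IL-10 family, was at 1.66 in Control, 2.75 in DKD1, 4.45 in KDM5C-KD2, 4.90 in TRIM11-KD1, 6.77 in KDM5C-KD1, 18.2 in TRIM11-KD2 and 23.1 in DKD2. FAIM3, an Fc receptor for IgM now named FCMR, was at 1.76 in Control and 3.49 to 11.2 in the lines, and it overlaps IL24 on the opposite strand at chr1:207076662-207096592, so that fragments of the shared part cannot be assigned to 1 gene in libraries that did not keep strand. The receptor TNFRSF18 and its ligand TNFSF18 were at 1.07 and 1.26 in Control and at 2.83 to 9.05 and 1.99 to 15.1 in the lines. IL6R, IL2RG (the common gamma chain) and JAK3, the kinase that binds that chain, were at 0.502, 0.518 and 0.477 in Control and at 0.869 to 3.21, 0.935 to 2.68 and 0.880 to 1.41 in the lines. These levels were low, and the Control value of IL2RG rests on an estimated 12.5 fragments. MX1, an interferon-induced GTPase, was at 4.62 in Control and 7.14 to 11.5 in the lines. MX1 was the only member of 38 interferon response genes tested (2.63%), a list with a median log2 ratio of -0.12. IL24 was the only member of 14 interleukins and colony stimulating factors (7.14%). None of 10 chemokines tested was a member. Over all genes tested, 0.832% were higher and 0.713% lower members, so a list of 10 genes would hold few or none at that share.

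**Figure D4:**
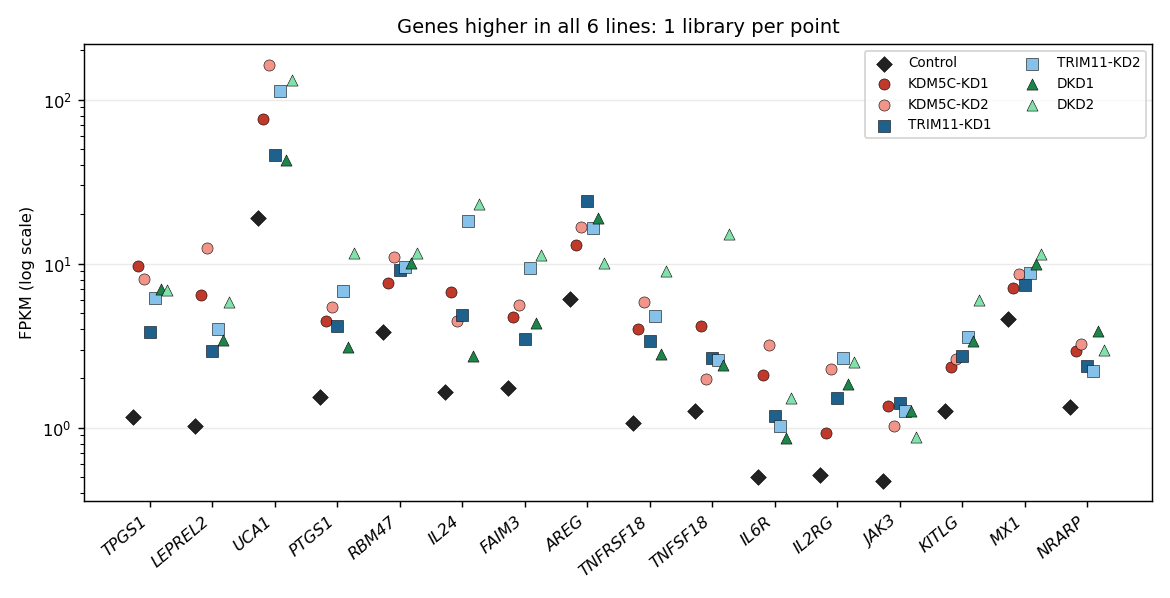
FPKM on a log scale of 16 genes higher in all 6 lines, with 1 point per library. Control (black diamond) is the lowest library for each gene, and TRIM11-KD2 and DKD2 (light blue and light green) are the highest for IL24, FAIM3 and PTGS1.

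Metabolic, matrix and RNA-binding genes completed the higher set. PTGS1, the constitutive cyclooxygenase, was at 1.54 in Control and 3.10 to 11.7 in the lines. RBM47, an RNA-binding protein of epithelial cells, varied little among the lines, with 3.82 in Control and 7.65 to 11.6 in the lines and a mean log2 ratio of 1.35 ± 0.21 (SD, 6 lines). HKDC1, a hexokinase family member, was at 3.26 in Control, 5.57 to 7.84 in 5 lines and 24.5 in KDM5C-KD2. The metalloproteases MMP24 and ADAM12 were at 2.95 and 0.374 in Control and at 5.70 to 14.5 and 0.678 to 1.88 in the lines. Of 14 listed matrix proteases and inhibitors tested, ADAM12 was the 1 higher and ADAMTS1 the 1 lower member. By any amount, 2 of the 14 were above Control in all 6 lines and 6 below. The median log2 ratio of that list was -0.66, against -0.01 for all genes tested. ABI3BP, a matrix protein, was at 2.25 in Control and 3.90 to 9.19 in the lines. The cancer-testis antigen MAGEC1 was at 0.774 in Control, 1.18 to 4.65 in 5 lines and 16.0 in KDM5C-KD2. PAGE1 was listed at 0 in Control, at 0.126 to 1.68 in 5 lines and at 7.81 in KDM5C-KD2. Its value of 0.126 in TRIM11-KD2 rests on an estimated 0.94 fragments. Of 10 cancer-testis antigens tested, these 2 were the members (20%). In that list 5 genes had a median ratio above Control and 5 below. The remaining higher genes named by rank were C10orf35, IER5L, PANX2, B4GALNT4 and CCDC85B, with mean log2 ratios between 1.11 and 1.59. Of 208 long noncoding or antisense symbols tested, 6 were higher and 2 were lower. Together they made 3.85% of the list, against 0.832% higher and 0.713% lower of all genes tested. RAET1E-AS1 was at 0.158 in Control, an estimated 0.699 fragments, and 0.657 to 4.88 in the lines.

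Most gene lists held few members. OSGIN1, an oxidative stress response gene, was the only member of 18 NRF2 targets and ferritins, with 8.37 in Control and 12.9 to 18.7 in the lines. In that list 10 of 18 genes were above Control in all 6 lines by any amount, against 13.4% of all genes tested, and 0 below, and the median log2 ratio was 0.47. Among 38 cell cycle and mitosis genes, 34 had a median ratio above Control, with a median log2 ratio of 0.19 against -0.01 for all genes tested. The share of all genes with a median ratio above Control was not counted. Of the 38, 5 were above Control in all 6 lines, a share near the 13.4% of all genes tested, and 0 were members. No member was found among 15 collagens, 11 other matrix proteins, 11 integrins, 19 genes of the epithelial-mesenchymal transition or 20 p53 targets. Nor was any found among 20 hypoxia genes, 27 genes of lipid synthesis, 34 nuclear genes of oxidative phosphorylation or 71 cytosolic ribosomal proteins. Over all genes tested, 0.832% were higher and 0.713% lower members, so lists of these sizes would hold few or none at that share. A list of migration genes named by the study, of which 7 were tested, also held none. The study took these from genes that rose in its KDM5C-KD lines and were rescued in its DKD lines. That choice, made on the same lines, works against a change shared by all 6. The count therefore cannot tell whether migration genes in general meet the rule. The gene lists were written with earlier results of the data known and are given as counts without a test.

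Lines that share a guide were compared to see how often they were the most extreme. TRIM11-KD2 and DKD2, which share TRIM11-sgRNA2, were both farther from Control than the other 4 lines for 19 of 98 higher genes (19.4%) and 21 of 84 lower genes (25%). Over all genes tested, these lines were the highest 2 for 12.2% and the lowest 2 for 12.6%. The group included IL24, FAIM3, PTGS1, PANX2 and CDK18 among the higher genes and SPDEF, TFF3, AGR2, B3GNT7 and JAG1 among the lower genes. TRIM11-KD1 and DKD1, which share TRIM11-sgRNA1, were farther than all others for 1 higher (1.02%) and 0 lower genes, against 7.72% and 6.57% of all genes tested. The 3 lines with KDM5C-sgRNA2 were farther than the other lines for 12 higher genes (12.2%), among them ABI3BP, RBM47 and NRARP, and for 5 lower genes (5.95%), against 6.87% and 5.22% of all genes tested. These lines also chose the members, so the counts are a description. The correlation of log2 values across genes was highest between TRIM11-KD2 and DKD2 (r = 0.982), and that of Control was highest with TRIM11-KD1 (r = 0.980), as a description of libraries that share all genes.

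Differences among the 3 knockdown types were tested by limma on log2(FPKM + 1) over the 6 knockdown lines, without Control. The values of the same 6 lines chose the members, with TRIM11-KD1 the limiting line for many of them, so the counts and p-values of members in this fit are a description and not an independent test. The lines of a type carry different guides, so the p-values measure only the spread between such lines. No gene differed in the F test at an adjusted p under 0.05, and 1187 of 11775 (10.1%) did at an unadjusted p under 0.05. Of the members, 13 of 98 higher genes (13.3%) and 4 of 84 lower genes (4.76%) were under 0.05 unadjusted. The members with the smallest limma F test p among those named by rank or list were ABI3BP, LINC00884, LEPREL2, MOCS1 and TPGS1, all with an adjusted p of 0.488 and with unadjusted p values from 0.00175 for ABI3BP to 0.0389 for TPGS1. ABI3BP had a mean of 2.33 on the log2(FPKM + 1) scale in TRIM11-KD, 2.80 in KDM5C-KD and 3.31 in DKD, a difference of 0.98 (SE 0.15) between DKD and TRIM11-KD. For KDM5C-KD minus TRIM11-KD, 23 of the 98 higher genes (23.5%) and 5 of the 84 lower genes (5.95%) had an unadjusted limma p under 0.05, against 1188 of 11775 genes (10.1%), of which 674 were higher and 514 lower in KDM5C-KD. The 23 were higher and the 5 lower in KDM5C-KD, and the median difference was 0.21 over the higher, -0.23 over the lower and 0.01 over all genes. None passed adjustment, the smallest adjusted p among the members being 0.483.

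The promoters of a few members are shown as examples of the sequence around members of both directions, from the RefSeq table of GRCh38.p14, 250 bases before to 50 bases after the start. A single such promoter was matched for 57 of 98 higher and 29 of 84 lower genes. The motifs searched on both strands were TATAAA for the TATA box, TGANTCA for AP-1, TGACGT for the core of the cyclic AMP response element, GGGCGG for the GC box, CACCTG for the E-box of ZEB1 and SNAI2, CACGTG for the E-box of MYC and CCGGAA for the ETS core, and capitals mark any match. SPDEF is at chr6:34556280-34556579 on the minus strand, TPGS1 at chr19:507247-507546 on the plus strand, CST3 at chr20:23637906-23638205 on the minus strand and NRARP at chr9:137302222-137302521 on the minus strand.
SPDEF promoter: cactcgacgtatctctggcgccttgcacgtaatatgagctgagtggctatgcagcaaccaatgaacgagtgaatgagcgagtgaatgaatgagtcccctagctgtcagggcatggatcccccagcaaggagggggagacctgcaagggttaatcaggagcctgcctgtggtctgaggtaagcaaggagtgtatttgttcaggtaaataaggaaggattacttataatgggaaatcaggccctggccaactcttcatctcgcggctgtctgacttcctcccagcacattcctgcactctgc
TPGS1 promoter: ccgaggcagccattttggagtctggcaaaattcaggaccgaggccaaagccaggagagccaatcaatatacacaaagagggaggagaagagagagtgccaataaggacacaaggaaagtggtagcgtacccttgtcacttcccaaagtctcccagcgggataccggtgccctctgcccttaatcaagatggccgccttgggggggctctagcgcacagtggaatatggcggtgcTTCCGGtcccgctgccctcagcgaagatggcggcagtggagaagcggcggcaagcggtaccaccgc
CST3 promoter: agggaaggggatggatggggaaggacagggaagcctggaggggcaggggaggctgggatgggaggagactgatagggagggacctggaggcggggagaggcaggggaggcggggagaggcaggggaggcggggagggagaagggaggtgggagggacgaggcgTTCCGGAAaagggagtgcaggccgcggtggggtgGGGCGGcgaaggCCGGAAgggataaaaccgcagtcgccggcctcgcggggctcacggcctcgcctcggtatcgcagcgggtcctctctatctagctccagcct
NRARP promoter: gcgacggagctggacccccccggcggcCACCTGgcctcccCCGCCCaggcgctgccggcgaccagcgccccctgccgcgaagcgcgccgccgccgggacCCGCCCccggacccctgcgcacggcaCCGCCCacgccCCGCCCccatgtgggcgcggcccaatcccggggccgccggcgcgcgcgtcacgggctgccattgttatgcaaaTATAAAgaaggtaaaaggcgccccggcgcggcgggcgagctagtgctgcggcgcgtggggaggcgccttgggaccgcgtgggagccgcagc

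The SPDEF window held no match. TPGS1 held an ETS core 16 bases before the start, CST3 held 3 ETS cores, of which 2 overlap, with a GC box, and NRARP held a TATA box 41 bases before the start together with 4 GC boxes and the ZEB1 and SNAI2 E-box. The TATA box was found in 8 of 57 promoters of higher genes (14.0%) and 2 of 29 of lower genes (6.90%), against 4.84% of 6492 promoters of genes tested. The GC box was found in 61.4% of the higher and 65.5% of the lower promoters, against 74.4%, and the ETS core in 24.6% and 10.3%, against 33.8%. The ZEB1 and SNAI2 E-box was in 26.3% and 24.1%, against 17.3%, and the AP-1 motif in 5.26% and 3.45%, against 4.17%. The core of the cyclic AMP response element was in 7.02% and 3.45%, against 13.0%, and the MYC E-box in 10.5% and 3.45%, against 10.9%. A match is a run of letters and not a measured binding site.

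The mouse tumors gave values that the choice of genes had not used. Of the 182 genes, 73 higher and 72 lower had a mouse gene of the same symbol, and 39 and 47 of these averaged 1 FPKM or more over the tumors. In limma, Trim11+/- and wild-type tumors differed at an unadjusted p under 0.05 for 4 of the 39 and 2 of the 47, against 1088 of 15208 mouse genes (7.15%), and none of the 86 passed adjustment, with a smallest adjusted p of 0.565. The median log2 difference was -0.04 for namesakes of higher genes and 0.02 for those of lower genes, against -0.003 for all mouse genes tested. Tumors of the genotypes did not overlap for 12 of the 86, 14.0%, against 13.8% of all mouse genes tested, and 5 of the 12 lay on the same side as in the cell lines.

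Spdef lay on the opposite side from the cell lines. It was at 1.63, 2.56 and 6.18 FPKM in the wild-type tumors and 7.63, 13.7 and 23.6 in the Trim11+/- tumors. The wild-type mean was 3.46 ± 2.41 (SD, n = 3), that of the Trim11+/- tumors was 4.34 times as high with an SD of 8.08 (n = 3), and every Trim11+/- tumor was above every wild-type tumor. The log2 difference in limma was 1.85 (SE 0.49) with an unadjusted p of 0.00748 and an adjusted p of 0.603. Rbm47 lay on the same side as in the cell lines, at 12.6 ± 0.935 (SD, n = 3) in wild-type and 15.3 ± 0.721 (SD, n = 3) in Trim11+/- tumors, with an unadjusted limma p of 0.0301 and an adjusted p of 0.658. Igfbp4, Yjefn3, Sorcs2 and Cdk18, chosen after their values were seen, had unadjusted limma p values of 0.00422, 0.00663, 0.00339 and 0.0355. Igfbp4 was lower and Yjefn3 higher in Trim11+/- tumors, as in the cell lines, while Sorcs2 and Cdk18 were lower there and higher in the cell lines.

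**Figure D5:**
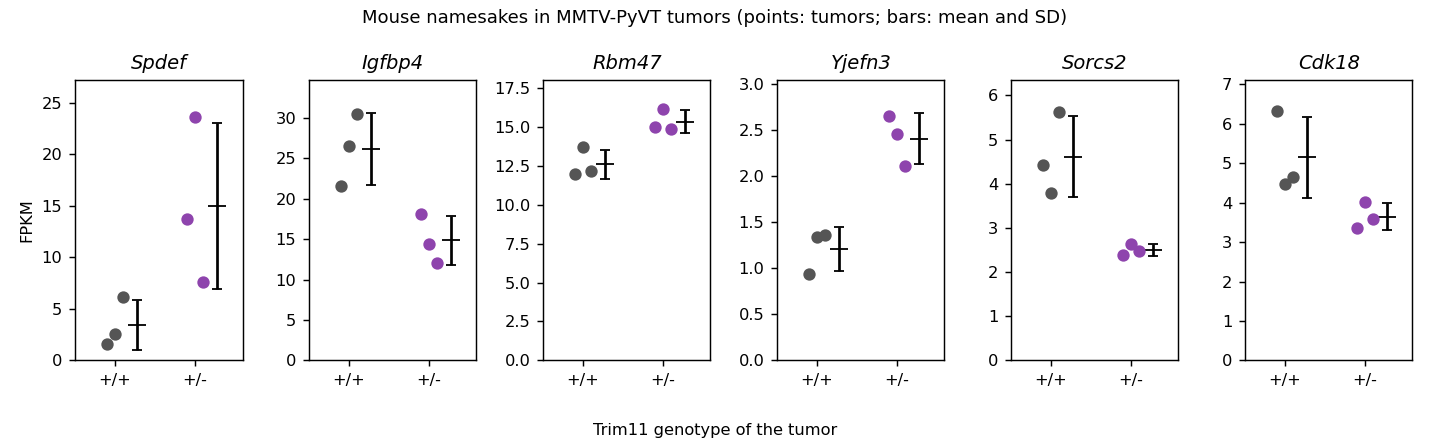
FPKM of 6 mouse namesakes in the 3 wild-type and 3 Trim11+/- tumors (points), with mean and SD (bars). The genotypes do not overlap for any of the 6, and Spdef has the widest spread, from 7.63 to 23.6 in Trim11+/- tumors.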

How the data were processed

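RNA-Seq was made of 7 MDA-MB-231 lines and 6 mouse tumors. The authors trimmed reads with Cutadapt after FastQC, mapped them with HISAT2 to hg19 or mm10 and estimated FPKM with Cufflinks at default settings. The deposited FPKM values hold no read counts. Of the human symbols, 27 that had become dates were dropped and, of rows that share a symbol, the row with the highest mean was kept, which left 24523 symbols.

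The members and gene lists were chosen with earlier results of these data known. Members averaged 1 FPKM or more across 7 libraries and were at least 1.5-fold from Control in 1 direction in all 6 lines, with no pseudocount. Named genes were the targeted genes, the 15 per direction with the largest ratio in the least changed line at an average of 5 FPKM or more, members of the lists, genes nearest the threshold, and those with the smallest p in the further tests. Ribosomal protein genes, small RNAs and LOC, LINC or -AS symbols were passed over in the ranking.

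Control has 1 library, so no p-value was computed against it. Knockdown types (2 lines each) and tumor genotypes (3 each) were compared with limma 3.58.1 in R 4.3.3 on log2(FPKM + 1) with a trend and Benjamini-Hochberg adjustment over all genes averaging 1 FPKM or more. The fit was tested on simulated data for KDM5C-KD against TRIM11-KD (11774 genes): with an SD of 0.15, 100% of genes changed by 1 or by 2 on the log2 scale were recovered with 12 false calls, and with an SD of 0.4, 14% of genes changed by 1 and 94% of those changed by 2 on the log2 scale were recovered. Depth was estimated from steps in low FPKM of 1425 genes with a single transcript length, taking transcript length minus 200 bases: 18870000 fragments in Control and 13790000 to 21030000 in the lines. Of the values checked, 55.4 to 62.9% were within 0.1 of a whole fragment, so the estimates are approximate and carry no interval. Positions are from GENCODE v44lift37 on hg19. Python 3.11.15, pandas 2.3.3 and Biopython 1.88 were used, and figures were drawn with matplotlib 3.10.9. Alternatives were other pseudocounts, filters, folds and scalings, lines or tumors left out, a replicate block, and Control as a group. Guide sequences and ChIP-Seq data were not analysed here, and 1 lower gene of the ranking is not reported here.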

Additional observations from a re-analysis of the deposited data

Results flagged for a closer look

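For 7 of the 86 genes with a mouse namesake averaging 1 FPKM or more, all 6 knockdown lines lay on 1 side of Control and all 3 Trim11+/- tumors lay on the opposite side of all 3 wild-type tumors. The difference between cell lines and tumors was not tested. The log2 difference of Trim11+/- minus wild-type tumors was 1.85 for Spdef, 0.67 for Chac1 and 0.077 for Mocs1, whose human namesakes were lower in the cell lines. It was -0.67 for Sorcs2, -0.44 for Matn2, -0.39 for Cdk18 and -0.32 for Ptgs1, whose human namesakes were higher. Agr2, Rnft2, Il24 and Rtn4r, which averaged under 1 FPKM in the tumors and were not tested, also lay on the opposite side without overlap. Panx2, Rasd2, Pid1 and Nr2f1, which were under 1 FPKM and untested too, lay without overlap on the same side as in the cell lines. No limma adjusted p of the 7 genes was under 0.05. The tumors did not overlap for 13.8% of all mouse genes tested.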

How the results depend on the processing

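The 98 higher and 84 lower genes changed in number with the threshold settings. There were 27 higher and 54 lower genes with a pseudocount of 1, 27 and 30 at a mean FPKM of at least 5, 296 and 584 with no filter, 24 and 23 at a fold of 2, and 628 and 576 by the geometric mean of the 6 lines, settings that alter how many genes are tested or how far the lines must lie. Without the lines TRIM11-KD1 and DKD1 there were 223 and 234. With 1 line left out at a time, a rule that can only add genes gave 102 to 172 higher and 89 to 154 lower genes, the most without TRIM11-KD1. A pseudocount of 0.1, a mean FPKM of at least 0.5, both scalings and dropping repeated symbols stayed within 1.5 times. Of 770 values of the mean log2 ratio of 70 named genes, 760 moved by less than the SD over lines, 10 moved by more, all with a pseudocount of 1, and no value of a member changed sign.

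In limma between knockdown types, the F test gave 1 gene at an adjusted p under 0.05 with no filter. KDM5C-KD minus TRIM11-KD gave 1 with a pseudocount of 0.1, 1 with no filter and 2 without a trend, and DKD minus TRIM11-KD gave the same numbers (1, 1 and 2). With 1 library left out, which leaves a type with 1 line assumed to vary like the others, the adjusted counts were 2 to 8 in the F test, 1 to 8 for KDM5C-KD minus TRIM11-KD, 0 to 16 for DKD minus KDM5C-KD and 0 to 7 for DKD minus TRIM11-KD, and the unadjusted F test counts were 574 to 1801, with 574 without KDM5C-KD2, 686 without TRIM11-KD1 and 1801 without KDM5C-KD1. With a replicate block the unadjusted F test count was 2026 and the adjusted count 0. Same-numbered lines had correlations of deviations of 0.09 (KDM5C-KD with TRIM11-KD), 0.27 (KDM5C-KD with DKD) and 0.37 (TRIM11-KD with DKD). With 2 lines per type, differently numbered lines have the same values with a negative sign. These values therefore cannot decide whether numbers pair the lines. TRIM11-KD and DKD lines of a number share a TRIM11 guide, which the main fit did not take into account.

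In tumors 1 gene passed adjustment. The replicate block gave 0 and the fit without a trend 3, and leaving out 1 tumor gave 0 to 1 with 760 to 1378 at an unadjusted p under 0.05. Same-numbered tumors had correlations of -0.36, 0.04 and -0.15, so numbers did not pair them. Namesakes of the 182 genes at an unadjusted p under 0.05 were 6 in the report, 11 with no filter and 5 to 12 with 1 tumor left out, with 12 without Trim11+/- tumor 3 and 10 without wild-type tumor 1. Spdef kept its direction and its side of the threshold in every alternative, and Rbm47 kept its direction but was above 0.05 in 5.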
